A study of Mus musculus with 71 samples.

Results

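Pluripotency factors were followed through in vitro oocyte growth, direct induction of oocyte-like cells and the last stages of oocyte maturation. The set held 10 genes, taken by symbol from a table of 15140 genes: Pou5f1, Sox2, Esrrb, Klf4, Klf5, Tfcp2l1, Tbx3, Lin28a, Sall4 and L1td1. All 10 were in the table and all 10 passed the filter on low values in every comparison. Levels are TPM, transcript abundances that correct for transcript length and are scaled to a fixed total over all genes counted in a library. Read depth is therefore unknown, and a change in very abundant transcripts moves all others. The 15140 genes used here summed to 520838 to 707845 TPM per library, which is not a fixed total. The material was mouse polyadenylated RNA in directional libraries, with 2 libraries in each group and 3 in each group of germinal vesicle (GV) oocytes. The labels do not say whether libraries of a group came from separate cultures or animals, and the spread behind each p-value may therefore be technical.

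Oocytes grown in vitro descended from mouse embryonic stem cells with Blimp1-Venus and Stella-CFP reporters, made into primordial germ cell-like cells and aggregated with somatic cells of E12.5 female gonads. Cells positive for Stella-CFP were sorted on day 11 or day 13. Knockouts of Lhx8, Figla, Stat3 and Sub1 were taken on day 11 and knockouts of Nobox, Sohlh1, Tbpl2, Dynll1, Ybx3, Ccnk, Kdm1b, Thap7, Noto, Foxr1, Mef2b, Sfr1, Hes6, Ell3 and Tcf25 on day 13, each set against wild type of its day. Directly induced oocyte-like cells (DIOLs) came from stem cells of the genotype MGA8 given 0.5 µM Shield1, a compound that stabilises proteins fused to a destabilising domain. They were sampled as DIOLs.S on days 1, 3, 5, 7 and 14, as DIOLs on days 5, 10, 15 and 25, and as matured DIOLs at metaphase II (MII DIOL). The labels do not say what the S denotes or which genes were introduced. GV oocytes came from the animal and are labelled comp and incomp, read here as competent and incompetent, and how competence was judged is not given in the sources used here. The title of the third comp library carries an added 2 whose meaning is not given. The deposited column names add 3w to comp and 2w to incomp oocytes, with no word on what the letter stands for. The Figla and Sohlh1 knockout titles carry the prefix IVD, which no other title has. The labels give the strain of every sample as C57BL/6 X 129.

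Pou5f1 (also called Oct4) and Sox2 bind DNA together at the centre of the network that keeps embryonic stem cells pluripotent. Esrrb, Klf4, Klf5, Tfcp2l1 and Tbx3 hold the naive state of that network under leukaemia inhibitory factor and Stat3 signalling, while Lin28a, Sall4 and L1td1 act on RNA or chromatin in stem cells and early germ cells. Primordial germ cells express Pou5f1 and Sox2, and Pou5f1 is known to be switched off when oocytes enter meiosis and on again when they grow.

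A gene was called higher or lower where the adjusted p of limma was under 0.05 and the log2 change, on log2(TPM + 1), at least 1 in size, with p-values adjusted over all genes tested. Of the 19 targeted genes 12 were in the table: 7 were called lower in their own knockout and 5 were not (Sub1, Ccnk, Thap7, Sfr1 and Ell3), and the other 7 were not analysed here. Sub1 was lower by less than the fold threshold (log2 change -0.49, adjusted p = 5.3e-05), and Ccnk read near wild type (0.02, adjusted p = 0.955). These are therefore named the libraries labelled Sub1 knockout and the libraries labelled Ccnk knockout. The Sohlh1 knockout libraries agreed less (r = 0.873 across genes) than the replicates of any other group (0.967 to 0.998). Rescaling libraries by the median of ratios over genes shifted the knockout comparisons by up to 0.59 (Dynll1) and the MII DIOL comparisons by -0.83 and -0.76 on log2. Summed growing-oocyte markers (15 genes in the table) read 64531 to 66021 TPM in wild-type day 13 oocytes and 11332 to 11741 TPM in wild-type day 11 oocytes. They read 1489 to 1742 TPM in DIOLs.S of day 1, where Oosp1 was listed at 0, and in no later DIOL or GV group was any of the 15 at 0 in all libraries.

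Promoter sequences of Pou5f1 and Sox2, the members that moved in opposite directions in several knockouts, are given from 250 bases before to 10 bases after the RefSeq transcription start (GRCm38.p6), in lower case with E-boxes (CANNTG, the core letters bound by basic helix-loop-helix factors such as Figla and Sohlh1) in capitals. The Pou5f1 window is chr17:35505782-35506041 and the Sox2 window chr3:34649745-34650004, both on the + strand.
Pou5f1: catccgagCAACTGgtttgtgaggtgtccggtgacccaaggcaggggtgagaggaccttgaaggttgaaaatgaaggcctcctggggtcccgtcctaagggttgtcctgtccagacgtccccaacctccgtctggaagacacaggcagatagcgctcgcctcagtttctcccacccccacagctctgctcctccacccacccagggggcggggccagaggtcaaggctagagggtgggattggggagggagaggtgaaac
Sox2: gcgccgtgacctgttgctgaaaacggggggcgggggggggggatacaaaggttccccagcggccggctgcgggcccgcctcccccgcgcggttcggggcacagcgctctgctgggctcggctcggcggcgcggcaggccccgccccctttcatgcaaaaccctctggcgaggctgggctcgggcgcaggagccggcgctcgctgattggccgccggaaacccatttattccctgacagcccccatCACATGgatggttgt
Each printed window holds 1 E-box, 242 bases before the start in Pou5f1 and 5 bases before it in Sox2. RefSeq promoters were found for 7 of the 10 members, 9 promoters in all, since Pou5f1 and Esrrb have 2 each. Klf5, Sall4 and Tbx3 had no entry. In windows of 300 bases (250 before and 50 after the start), read on both strands, an E-box was in 7 of the 9 member promoters and in 72.3% of 32851 mouse promoters. The NOBOX element TAATTG was in 0 of 9, against 8% of all promoters, and its variant TAATTA in 0 of 9, against 5.29%. The STAT element TTCNNNGAA was in 2 of 9 (Lin28a and 1 start of Esrrb), against 8.30%. These counts describe letters in these windows and no binding was measured.

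The annotated gene of Pou5f1 lies on chromosome 17 at 35506018 to 35510772 on the + strand (GRCm38, GENCODE M21), and that of Sox2, on chromosome 3 at 34650405 to 34652461, lies within the long noncoding gene Sox2ot on the same strand. Antisense genes overlap Pou5f1 (Gm19553), Sall4 (Gm14261), Lin28a (Gm13061) and the start of Tbx3 (Tbx3os1). The strand setting of the counting, and how it treated reads shared with copies of a gene elsewhere in the genome, are not given in the sources used here, so such reads could add to or be missing from these members.

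Pou5f1 was the most abundant member in most libraries. It was the highest of the 10 in 60 of 68 libraries, Lin28a in 4, Sall4 in 2, and Klf4 and Sox2 in 1 each. Its level had a median of 428 TPM over the 68 libraries, with a lowest of 4.11 (Nobox knockout) and a highest of 888 (DIOLs.S of day 1). The other members had medians between 0.195 TPM for L1td1 and 73.0 TPM for Lin28a. In wild-type day 13 oocytes Pou5f1 made up 84.0% to 84.1% of the members' summed TPM, in wild-type day 11 oocytes 64.9% to 69.4%, in DIOLs of day 25 74.7% to 75.8% and in incompetent GV oocytes 55.2% to 59.5%. The share was 2.32% to 3.38% in the Nobox knockout, 19.2% to 21.5% in the Lhx8 knockout and 19.5% to 21.2% in MII DIOL.

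**Figure D1:**
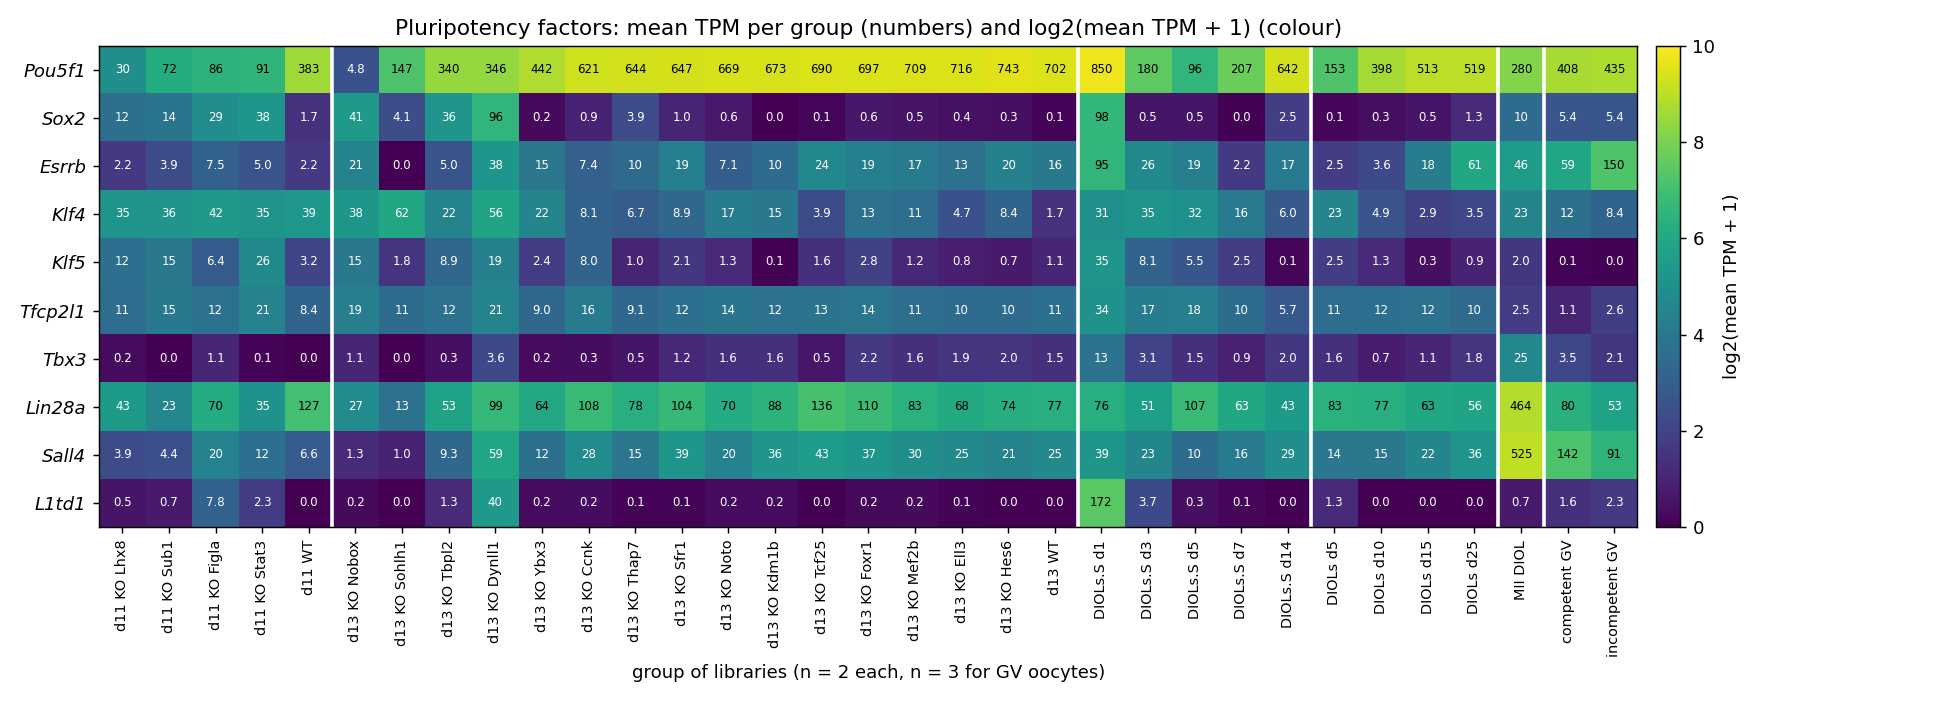
Mean TPM of each member (rows, numbers) in each group (columns), coloured by log2(mean TPM + 1), with n = 2 libraries per group and n = 3 for GV oocytes. The Pou5f1 row is bright in nearly every column and darkest in the Nobox knockout, where its libraries read 5.41 and 4.11 TPM. Sox2 and L1td1 reach their highest means in DIOLs.S of day 1 and their next highest in the Dynll1 knockout.

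Pou5f1 was lower in 8 of the 19 knockouts and was called higher in none. All 4 knockouts of day 11 were among them, although they share the same 2 wild-type libraries. It read 30.5 and 30.3 TPM in the Lhx8 knockout, 87.3 and 85 TPM in the Figla knockout, 87.3 and 95.1 TPM in the Stat3 knockout and 72.3 and 70.9 TPM in the libraries labelled Sub1 knockout, against 374 and 392 TPM in wild type. The 8 knockout libraries lay below both wild-type libraries and the groups did not overlap. The change was largest in the Lhx8 knockout (log2 change -3.61 ± 0.10, adjusted p = 4.1e-20), where 9.47% of all genes were called lower. It was -2.14 in the Figla knockout (adjusted p = 1.5e-15; 9.52% of genes lower), -2.06 in the Stat3 knockout (adjusted p = 2.1e-15; 11.5%) and -2.40 in the libraries labelled Sub1 knockout (adjusted p = 3e-16; 9.26%). Where libraries are bulk RNA, fewer cells that express a gene and less RNA of it per cell cannot be told apart.

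On day 13 the Nobox knockout stood apart. Pou5f1 read 5.41 and 4.11 TPM there, against 700.0 and 703 TPM in wild type (log2 change -6.94 ± 0.10, adjusted p = 1.2e-26; 8.50% of genes lower), and the gap was larger after rescaling (log2 change -7.46). Nobox is a homeobox factor of early oocytes. The Sohlh1 knockout followed with 170.4 and 124 TPM (log2 change -2.26 ± 0.10, adjusted p = 3.1e-16; 13.4% lower). The Tbpl2 knockout, which lacks an oocyte form of the TATA-binding protein, read 344 and 337 TPM (log2 change -1.04 ± 0.10, adjusted p = 2.2e-09; 6.35% lower). The Dynll1 knockout, which lacks a dynein light chain, read 337 and 354 TPM (log2 change -1.02 ± 0.10, adjusted p = 1.1e-09; 10.4% lower). That last call ended without Dynll1 knockout replicate 1, at a log2 change of -0.98, and stood at -1.66 after rescaling. None of these 8 libraries reached the wild-type range.

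In the other 11 knockouts of day 13 Pou5f1 was not called. The Ybx3 knockout came nearest with 454 and 429.6 TPM (log2 change -0.67, adjusted p = 6e-06), below the fold threshold and at -1.01 after rescaling, where it passed. The remaining 10 knockouts read 614 to 748 TPM, on both sides of wild type. Over all 30 knockout libraries of day 13, 25 lay below both wild-type libraries and 5 above both. The wild-type libraries were close together, at 700.0 and 703 TPM, so nearly any library falls outside their range. How often other genes are placed so was not counted. The highest were the Hes6 knockout libraries at 739 and 748 TPM (log2 change 0.08, adjusted p = 0.93).

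**Figure D2:**
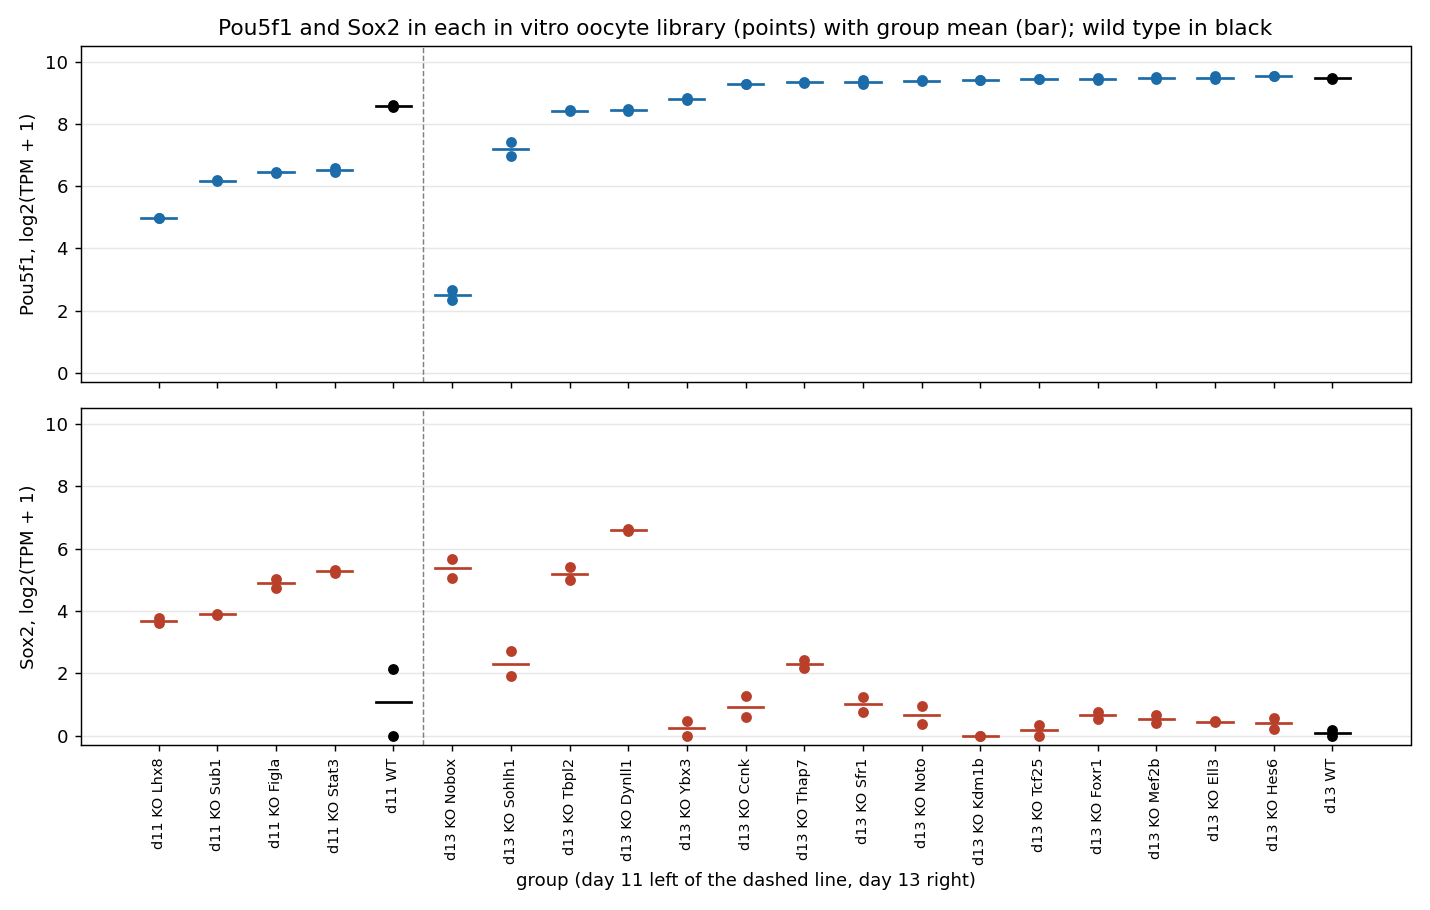
Levels of Pou5f1 (top) and Sox2 (bottom) on log2(TPM + 1) in each in vitro oocyte library (points), with bars at group means, knockouts of day 11 left of the dashed line and those of day 13 right of it, and wild type in black. Pou5f1 lies far below wild type in the Nobox and Lhx8 knockouts, while Sox2 is highest in the Dynll1 knockout at 93.8 and 98.2 TPM.

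Knockouts of the same day differed in Pou5f1 when tested directly. The Nobox knockout was lower than the Tbpl2 knockout (log2 change -5.90, adjusted p = 7.2e-25), in a comparison where 1 member was higher and 2 lower and 17.1% of all genes were called. Lin28a stood just under the fold threshold at -0.99 (adjusted p = 5.1e-05) and passed it after rescaling at -1.13. Sall4 was lower there too (-2.26, adjusted p = 3.8e-06) and Esrrb higher (1.95, adjusted p = 0.00016). On day 11 the Lhx8 knockout was lower than the Stat3 knockout in Pou5f1 (-1.55, adjusted p = 2.6e-11), in a comparison with 0 members higher and 4 lower and 3.85% of genes called. The other 3 calls were Sox2 (-1.59), Sall4 (-1.37) and L1td1 (-1.18). Each of these 3 was lost on leaving out Lhx8 knockout replicate 1 (adjusted p = 0.085 for Sox2, 0.0818 for Sall4 and 0.156 for L1td1), the calls of Sox2 and L1td1 also on leaving out either Stat3 knockout library (adjusted p 0.0616 to 0.0874), and that of Sox2 without Lhx8 knockout replicate 2 (adjusted p = 0.0545). All 3 were lost with a pseudocount of 0.1 (adjusted p 0.154 to 0.34).

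Growing-oocyte markers were lower as well in these 8 knockouts, 13 or 14 of the 15 being called lower in each. Of all genes 6.35% to 13.4% were called lower in these comparisons. The 15 include Lhx8, Sohlh1 and Tbpl2, each called lower in its own knockout, so the counts there hold the targeted gene itself. Zp3, a glycoprotein of the egg coat, read 15.1 and 14.1 TPM in the Lhx8, 9.95 and 11.7 TPM in the Stat3 and 1.05 and 1.97 TPM in the Figla knockout, against 1943 and 1843 TPM in wild-type day 11 oocytes. On day 13 it read 74 and 80.4 TPM in the Dynll1, 122 and 164 TPM in the Sohlh1, 532 and 551 TPM in the Nobox and 2108 and 2088 TPM in the Tbpl2 knockout, against 16420 and 16230 TPM in wild type. The order was not that of Pou5f1: the Dynll1 knockout had less Zp3 than the Nobox knockout and far more Pou5f1, and the Figla knockout had less Zp3 than the Lhx8 knockout and more Pou5f1.

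**Figure D3:**
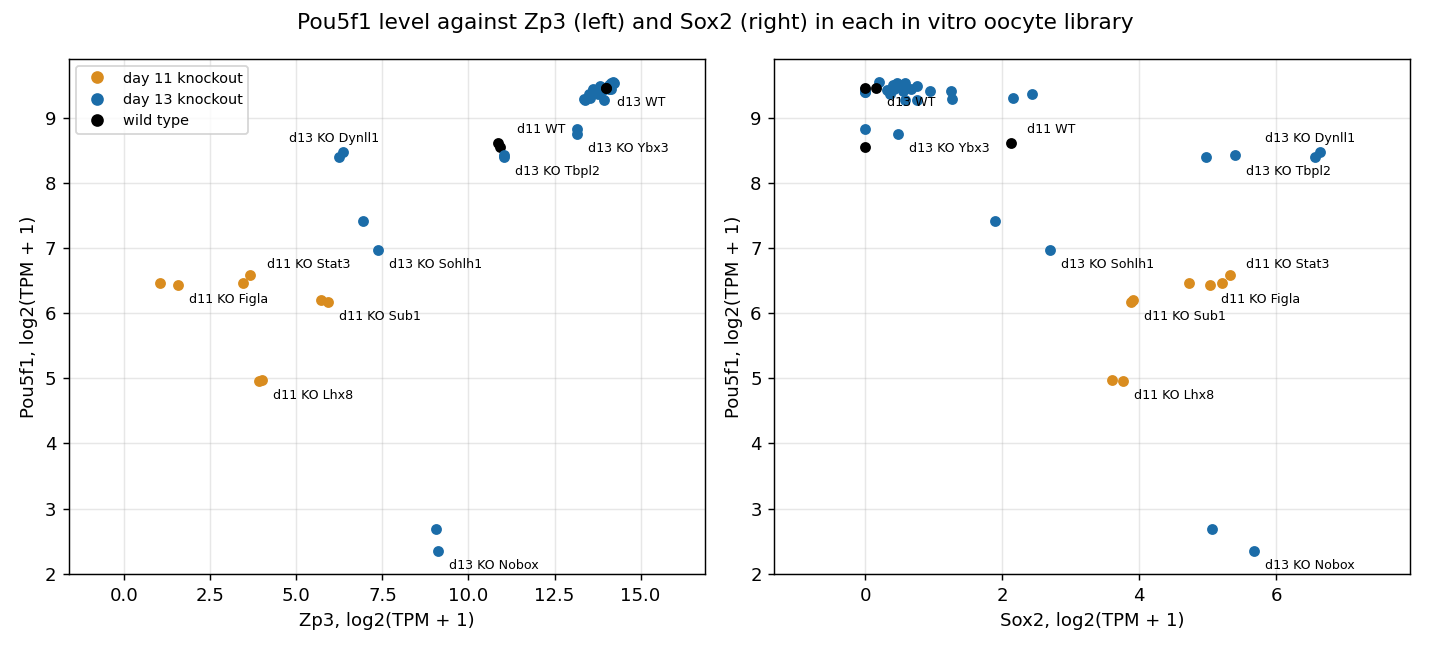
Pou5f1 plotted against Zp3 (left) and against Sox2 (right), all on log2(TPM + 1), in each in vitro oocyte library, knockouts and wild type. The Nobox knockout lies lowest in Pou5f1 in both panels, and the Dynll1 knockout combines Zp3 of 74 and 80.4 TPM with Pou5f1 of 337 and 354 TPM.

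Sox2, the partner of Pou5f1, was at or below 3.38 TPM in wild-type oocytes and higher in 9 of the 19 knockouts, and was called lower in none. On day 13 it read 93.8 and 98.2 TPM in the Dynll1, 32.3 and 50.0 TPM in the Nobox and 41.1 and 30.5 TPM in the Tbpl2 knockout, against 0.12 and 0 TPM in wild type. Each of these 6 libraries lay well above both wild-type libraries. The log2 changes were 6.52 ± 0.43 in the Dynll1 (adjusted p = 9.9e-13; 37.7% of genes higher), 5.28 in the Nobox (adjusted p = 9.1e-11; 30.0%) and 5.10 in the Tbpl2 knockout (adjusted p = 3.4e-10; 22.8%). The Sohlh1 knockout read 2.72 and 5.51 TPM (log2 change 2.22, adjusted p = 9.5e-05; 22.3% of genes higher) and the Thap7 knockout 3.48 and 4.41 TPM (log2 change 2.22, adjusted p = 0.0017; 2.40%). In the other 10 knockouts of day 13 it stayed at or below 1.40 TPM and was not called.

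On day 11 Sox2 read 36.1 and 39 TPM in the Stat3 knockout, 25.5 and 31.8 TPM in the Figla knockout, 14 and 13.7 TPM in the libraries labelled Sub1 knockout and 11.2 and 12.6 TPM in the Lhx8 knockout, against 0 and 3.38 TPM in wild type. The 4 knockouts did not overlap wild type, whose 2 libraries differed from each other. All 4 were called higher, with log2 changes of 4.20 in the Stat3 (adjusted p = 7.5e-09; 15.8% of genes higher), 3.82 in the Figla (adjusted p = 5.6e-08; 18.6%), 2.83 in the Sub1-labelled (adjusted p = 7.1e-06; 13.5%) and 2.62 in the Lhx8 comparison (adjusted p = 1.9e-05; 12.4%). In the Thap7 knockout of day 13, where Sox2 was called higher, Pou5f1 read 634 and 655 TPM, against 700.0 and 703 TPM in wild type (adjusted p = 0.61).

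Among the factors of the naive network, Klf4, a Krüppel-like factor and reprogramming factor, was the one most often called. Wild-type day 13 oocytes held the lowest Klf4 of all 33 groups, at 1.5 and 1.91 TPM, and all 30 knockout libraries of day 13 lay above both of them. It was called higher in 10 of the 15 knockouts of day 13 and in none of the 4 of day 11, where the knockouts read 29.1 to 47.8 TPM and wild type 34.1 and 43.8 TPM. All comparisons of day 13 share the same 2 wild-type libraries, so these calls are not independent repeats. Klf4 read 59.1 and 52 TPM in the Dynll1 knockout (log2 change 4.39 ± 0.55, adjusted p = 1.3e-07) and 40.7 and 35.4 TPM in the Nobox knockout (log2 change 3.85, adjusted p = 1.5e-06). The Sohlh1 knockout libraries were far apart at 10.1 and 113 TPM (log2 change 3.72, adjusted p = 2.6e-06). The log2 changes were 3.10 in the Ybx3 (15.7% of genes higher) and 3.06 in the Tbpl2 knockout. They were 2.77 in the Noto, 2.52 in the Kdm1b, 2.33 in the Foxr1, 2.16 in the Mef2b and 1.75 in the Ccnk-labelled comparison, where 2.04%, 3.04%, 1.84%, 1.02% and 5.23% of genes were called higher. Each of the last 4 was lost on leaving out single libraries: wild-type replicate 1 in all 4 (adjusted p 0.0584 to 0.215), wild-type replicate 2 in the Ccnk-labelled, Foxr1 and Mef2b comparisons (adjusted p 0.0753 to 0.162), either library labelled Ccnk, Foxr1 or Mef2b knockout (adjusted p 0.0827 to 0.363), and Kdm1b knockout replicate 2 (adjusted p = 0.104). The Ccnk-labelled call was also lost after rescaling (adjusted p = 0.0708). The spread shared by these tests includes the 2 Sohlh1 knockout libraries. Without them Klf4 was also called higher in the Thap7 (1.51, adjusted p = 0.00053), Sfr1 (1.87, adjusted p = 5.3e-05), Hes6 (1.80, adjusted p = 0.00012) and Ell3 knockouts (1.09, adjusted p = 0.032). The calls in the Thap7, Sfr1 and Hes6 knockouts were also gained with a pseudocount of 0.1 and with 1 fit over all libraries.

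Klf5, a relative of Klf4, was called higher in 7 knockouts and lower in none. It read 26.5 and 26.3 TPM in the Stat3 knockout, 13.6 and 16.7 TPM in the libraries labelled Sub1 knockout and 13 and 10.2 TPM in the Lhx8 knockout, against 2.21 and 4.19 TPM in wild type, with log2 changes of 2.75, 1.98 and 1.62. The call in the Lhx8 knockout was lost without wild-type day 11 replicate 1 (log2 change 1.27, adjusted p = 0.11) and without Lhx8 knockout replicate 1 (adjusted p = 0.078). On day 13 it read 16.4 and 22.4 TPM in the Dynll1, 12.3 and 17.9 TPM in the Nobox, 8.41 and 9.43 TPM in the Tbpl2 and 8.6 and 7.36 TPM in the Ccnk-labelled libraries, against 0.5 and 1.72 TPM in wild type. These groups did not overlap wild type, with log2 changes of 3.32, 2.97, 2.29 and 2.15. The call in the Ccnk-labelled libraries was lost without wild-type replicate 1 (adjusted p = 0.071). With a pseudocount of 0.1 the calls in the Lhx8 (adjusted p = 0.165) and Sub1-labelled comparisons (adjusted p = 0.0891) were lost.

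Esrrb, an orphan nuclear receptor, did not move in 1 direction: it was called higher in 3 knockouts and lower in 2. The Dynll1 knockout read 38.5 and 36.6 TPM, the Tbpl2 knockout 6.92 and 3.03 TPM and both Sohlh1 knockout libraries 0, against 16.8 and 14.5 TPM in wild type. The log2 changes were 1.21 (adjusted p = 0.0056, and 0.60 after rescaling, adjusted p = 0.16) in the Dynll1 and -1.55 (adjusted p = 0.001) in the Tbpl2 knockout, and the adjusted p in the Sohlh1 knockout was 7.9e-10. On day 11 it read 6.18 and 8.9 TPM in the Figla and 4.77 and 5.14 TPM in the Stat3 knockout, against 3.87 and 0.53 TPM in wild type, and both calls (log2 changes 1.63 and 1.12) were lost without wild-type replicate 2, at 0.79 (adjusted p = 0.077) and 0.29 (adjusted p = 0.57). The call in the Stat3 knockout was also lost without Stat3 knockout replicate 2 (adjusted p = 0.07) and fell below the fold threshold after rescaling (0.95).

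Tfcp2l1, a grainyhead-like factor downstream of Stat3 in mouse stem cells, was called in 1 knockout, that of Stat3. It read 19.9 and 21.4 TPM there, against 10.0 and 6.79 TPM in wild type (log2 change 1.23, adjusted p = 0.00013, and 0.98 without wild-type replicate 2). Smaller differences that missed the fold threshold were seen in the Dynll1 (0.82, adjusted p = 0.004), Sub1-labelled (0.82, adjusted p = 0.0074) and Nobox comparisons (0.65, adjusted p = 0.023). After rescaling, little was left in the Dynll1 (0.22, adjusted p = 0.47) and Nobox comparisons (0.11, adjusted p = 0.776). The Sub1-labelled comparison then stood at 0.71 (adjusted p = 0.024). Whether the difference in the Stat3 knockout is particular to it was not tested. Tbx3, a T-box factor, was under 5 TPM in all in vitro oocytes and was called lower in the Sohlh1 knockout (0 in both libraries, against 1.66 and 1.41 TPM in wild type; adjusted p = 0.003) and in the Ybx3 knockout (0 and 0.47 TPM; log2 change -1.06, adjusted p = 0.026). The Ybx3 call was lost without wild-type replicate 1, wild-type replicate 2 or Ybx3 knockout replicate 1 (adjusted p 0.0721 to 0.214). In the Tbpl2 knockout Tbx3 missed the fold threshold (-0.97, adjusted p = 0.03) and was called lower after rescaling (-1.18, adjusted p = 0.0091), with a pseudocount of 0.1 (adjusted p = 0.036) and without Tbpl2 knockout replicate 1 (-1.30, adjusted p = 0.021). In the libraries labelled Ccnk knockout, Tbx3 (-0.99, adjusted p = 0.062) and Esrrb (-0.997, adjusted p = 0.063) were called lower only after rescaling (-1.17, adjusted p = 0.031, and -1.28, adjusted p = 0.016).

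Lin28a, an RNA-binding protein that blocks maturation of let-7, was called lower in 5 knockouts and higher in none. On day 11 it read 22.5 and 24.3 TPM in the libraries labelled Sub1 knockout, 38 and 31.2 TPM in the Stat3, 46.9 and 38.9 TPM in the Lhx8 and 76.7 and 63.6 TPM in the Figla knockout, against 106 and 148 TPM in wild type. All 8 libraries lay below both wild-type libraries. The log2 changes were -2.37 (adjusted p = 2e-11), -1.83 (adjusted p = 1.4e-09) and -1.53 (adjusted p = 4.6e-08) in the first 3, and -0.83 (adjusted p = 0.00023, and -1.09 after rescaling) in the Figla knockout, below the fold threshold. On day 13 it read 14.3 and 11.2 TPM in the Sohlh1 and 33 and 20.9 TPM in the Nobox knockout, against 73.4 and 80.0 TPM in wild type, with log2 changes of -2.51 and -1.51. The Dynll1 knockout, at 103 and 96.1 TPM, was not called (log2 change 0.37, adjusted p = 0.06).

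Sall4, a zinc finger factor needed for oocyte growth in mice, was called lower in 4 knockouts and higher in 2. It read 0.58 and 1.95 TPM in the Nobox, 2 and 0 TPM in the Sohlh1, 8.46 and 10.2 TPM in the Tbpl2 and 12.1 and 11.6 TPM in the Ybx3 knockout, against 28.3 and 22.3 TPM in wild type. These 8 libraries lay below wild type, with log2 changes of -3.60 (adjusted p = 4.9e-10), -3.91 (adjusted p = 1.1e-10), -1.34 (adjusted p = 0.0011) and -1.02 (adjusted p = 0.015). The Ybx3 call was lost without wild-type replicate 1 (log2 change -0.85, adjusted p = 0.13) or without either Ybx3 knockout library (adjusted p 0.0547 to 0.0681). In the Dynll1 knockout it read 56.2 and 61.9 TPM (log2 change 1.20, adjusted p = 0.0019, and 0.57 with adjusted p = 0.11 after rescaling). In the Figla knockout it read 20.4 and 20.5 TPM, against 7.68 and 5.51 TPM in wild-type day 11 oocytes (log2 change 1.51, adjusted p = 0.00034, and adjusted p = 0.0594 with a pseudocount of 0.1). With that pseudocount the calls in the Tbpl2 (adjusted p = 0.0993), Dynll1 (adjusted p = 0.126) and Ybx3 knockouts (adjusted p = 0.266) were lost too.

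L1td1, an RNA-binding protein derived from a LINE-1 element, was listed at 0 in all 4 wild-type libraries of both days and was called higher in 4 knockouts. It read 44.9 and 35.8 TPM in the Dynll1 knockout (adjusted p = 1.9e-13), 8.77 and 6.8 TPM in the Figla (adjusted p = 1.5e-08), 2.32 and 2.38 TPM in the Stat3 (adjusted p = 7.6e-05) and 1.91 and 0.67 TPM in the Tbpl2 knockout (adjusted p = 0.0052). The last call was lost without Tbpl2 knockout replicate 1 (adjusted p = 0.13).

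Counted by knockout, 6 members were higher and 1 lower in the Dynll1 knockout, in a comparison where 48.2% of all 12306 genes were called. Their median log2 change was 1.21 and that of all genes 0.69. In the Nobox knockout 3 members were higher and 3 lower (38.5% of genes called; median 0.33, against 0.52 for all genes). The counts were 2 higher and 5 lower in the Sohlh1 knockout (35.7% of genes called), 4 and 3 in the Tbpl2 knockout (29.2%), 1 and 2 in the Ybx3 knockout (17.9%), 5 and 2 in the Stat3 knockout (27.3%), 4 and 1 in the Figla knockout (28.1%), and 2 and 2 in both the Lhx8 knockout (21.9%) and the libraries labelled Sub1 knockout (22.8%). The libraries labelled Ccnk knockout had 2 higher and 0 lower (6.14% of genes called). The Kdm1b (3.19%), Thap7 (2.74%), Noto (2.23%), Foxr1 (1.88%) and Mef2b (1.08%) knockouts had 1 higher and 0 lower each. The Sfr1, Hes6, Ell3 and Tcf25 knockouts had none, where 1.24%, 0.593%, 0.114% and 0.504% of genes were called. Called lower in the Foxr1, Mef2b and Sfr1 knockouts were 0.0325%, 0.0569% and 0.0569% of genes, and called higher in the Sfr1 knockout 1.18%.

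Other genes of the pluripotency network, 20 of 33 listed ones being in the table, were called in both directions. In the Dynll1 knockout 13 of 20 were higher and 3 lower, with a median log2 change of 2.46. Of all genes 37.7% were called higher there and 10.4% lower. Mycn, a Myc family factor, averaged 54 TPM there and 0.11 TPM in wild type (log2 change 5.64), Dppa4, a chromatin-associated protein of pluripotent cells, 88.9 and 2.9 TPM (4.58), and Fbxo15, an F-box gene used as a reporter in reprogramming, 83.1 and 3.1 TPM (4.35). In the Tbpl2 knockout 10 were higher and 3 lower, in the Nobox knockout 6 and 4, and in the Sohlh1 knockout 3 and 5. Of all genes 22.8%, 30.0% and 22.3% were called higher in these 3 knockouts and 6.35%, 8.50% and 13.4% lower. The counts of higher genes in the Nobox and Sohlh1 knockouts were thus near or below the share of all genes. In the Nobox knockout Fbxo15 averaged 67 TPM, against 3.1 TPM in wild type (4.05), and the homeobox gene Gbx2 3.38 TPM, against 34.8 TPM (-3.03). On day 11 the counts were 8 higher and 3 lower in the Stat3, 7 and 3 in the Figla, 5 and 3 in the Lhx8 and 4 and 3 in the Sub1-labelled comparison. Of all genes 15.8%, 18.6%, 12.4% and 13.5% were called higher there and 11.5%, 9.52%, 9.47% and 9.26% lower. Mycn was higher in the Stat3 knockout (33.8 TPM, against 1.92 TPM in wild type; log2 change 3.97), and Tcl1, a coactivator of Akt, was lower in the Lhx8 knockout (41 TPM, against 468 TPM; -3.49).

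Early germ cell genes and markers of other cells moved in the same comparisons. Of 11 early germ cell genes 6 were higher and 1 lower in the Nobox, 6 and 1 in the Dynll1, 4 and 0 in the Tbpl2 and 7 and 1 in the Stat3 knockout, where 30.0%, 37.7%, 22.8% and 15.8% of all genes were called higher. Summed granulosa and gonadal somatic markers read 627 to 658 TPM in the Dynll1, 935 to 992 TPM in the Nobox, 1215 to 1301 TPM in the Tbpl2 and 1862 to 1951 TPM in the Ybx3 knockout, against 44 to 48.1 TPM in wild-type day 13 oocytes. In these 4 knockouts 17, 17, 18 and 18 of 20 were higher, against 37.7%, 30.0%, 22.8% and 15.7% of all genes, Fshr being listed at 0 in all 4. Of these 4 knockouts that of Ybx3 had the highest sum. Sox2 read 0 and 0.39 TPM in the Ybx3 knockout. On day 11 the granulosa sum was 2326 to 2346 TPM in the Lhx8 and 1408 to 1418 TPM in the Stat3 knockout, against 1624 to 1651 TPM in wild type. Summed blood markers read 1881 to 1937 TPM in the libraries labelled Sub1 knockout (12 of 13 higher, against 13.5% of all genes, Hba-a1 at 0). They read 34.5 to 36.4 TPM in the Stat3 knockout and 31 to 51.2 TPM in wild type. In the Sohlh1 knockout blood markers read 214 to 2622 TPM and stromal markers 313 to 3952 TPM, so its 2 libraries differed in these as they did in Klf4. The part of these cells in the members' levels was not tested.

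Between wild-type oocytes of day 13 and day 11, 3 members were higher and 1 lower on day 13, where 22.0% of genes were called. Esrrb read 16.8 and 14.5 TPM on day 13, against 3.87 and 0.53 TPM on day 11 (log2 change 2.6, adjusted p = 2.7e-06), Sall4 28.3 and 22.3 TPM, against 7.68 and 5.51 TPM (1.80, adjusted p = 5.8e-05), and Tbx3 1.66 and 1.41 TPM, against 0 in both day 11 libraries (adjusted p = 0.0043). Klf4 fell to 1.5 and 1.91 TPM, against 34.1 and 43.8 TPM on day 11 (-3.88, adjusted p = 2.9e-06). Pou5f1 read 700.0 and 703 TPM on day 13, against 374 and 392 TPM on day 11. Its log2 change of 0.87 (adjusted p = 6.7e-08) missed the fold threshold and was 1.31 after rescaling. Granulosa markers fell in the same comparison (18 of 20 lower, against 16.5% of all genes), at 44 to 48.1 TPM in sum on day 13 and 1624 to 1651 TPM on day 11. Their part in the fall of Klf4 was not tested.

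During direct induction the DIOLs.S libraries started with every member expressed, and the members then parted. Pou5f1 read 812 and 888 TPM on day 1, 176 and 184 on day 3, 99.3 and 92.8 on day 5, 188 and 226 on day 7 and 649 and 636 on day 14. It was thus high at both ends and lowest on day 5. Its fall by day 3 (log2 change -2.23 ± 0.08, adjusted p = 3.9e-14) and its rise to day 7 (log2 change 1.10 ± 0.08, adjusted p = 1.6e-08) and to day 14 (log2 change 1.63 ± 0.08, adjusted p = 2.9e-12) passed. The rise to day 7 was 0.97, just under the threshold, without DIOLs.S day 7 replicate 2. Day 14 and day 1 differed by -0.40 (adjusted p = 0.00014), which was not a call.

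Sox2 and L1td1 followed the first fall and did not return to their day 1 levels. Sox2 read 100.0 and 96.8 TPM on day 1, 0.88 and 0.08 on day 3, 0.25 and 0.69 on day 5, 0 and 0.07 on day 7 and 3.3 and 1.72 on day 14. L1td1 read 163 and 181 TPM on day 1 and 4.58 and 2.82 on day 3, was under 1 TPM on days 5 and 7 and was listed at 0 on day 14. Both were thus high on day 1 alone. On day 3 against day 1 the log2 changes were -6.12 for Sox2 (adjusted p = 4.7e-11) and -5.22 for L1td1 (adjusted p = 6.8e-13). On day 14 against day 7 Sox2 was higher by 1.73 (adjusted p = 0.0003), at a level far below day 1.

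The naive factors fell at different times. Klf5 read 34.1 and 36.4 TPM on day 1, 9.62 and 6.63 on day 3 and 0 and 0.18 on day 14, and its call on day 3 against day 1 (-2.01, adjusted p = 0.00011) was lost with a pseudocount of 0.1 (adjusted p = 0.07). Esrrb read 93.6 and 96.5 TPM on day 1, 28.4 and 23.8 on day 3, 16.9 and 20.5 on day 5, 1.56 and 2.85 on day 7 and 14.3 and 19.1 on day 14. Esrrb thus reached its lowest level on day 7, later than Pou5f1, and was higher again on day 14 (log2 change 2.48, adjusted p = 5.6e-09). Tbx3 read 12.8 and 13 TPM on day 1 and between 0.87 and 3.48 TPM on days 3 to 14. Klf4 held its level over the first days, with 31.7 and 30.5 TPM on day 1, 37.9 and 32.5 on day 3, 25.7 and 38 on day 5, 15.9 and 15.9 on day 7 and 6.6 and 5.36 on day 14. Its fall to day 14 against day 7 (-1.28, adjusted p = 2.5e-05) was -0.83 after rescaling. Tfcp2l1 read 33.8 and 33.6 TPM on day 1 and 4.92 and 6.55 on day 14, with levels in between on the days in between, and its change on day 3 against day 1 was -0.93, and -1.13 after rescaling.

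Lin28a and Sall4, like Pou5f1, were not called between the ends of the course. Lin28a read 75 and 76 TPM on day 1, 117 and 96.4 on day 5, its highest day, and 45.7 and 40.0 on day 14. Sall4 read 36.3 and 41 TPM on day 1, 10.2 and 10.8 on day 5, its lowest day, and 29.1 and 29.4 on day 14. Neither was called on day 14 against day 1 (log2 changes -0.81 and -0.39). On day 5 against day 3 Lin28a was higher (1.05, and 0.91 without DIOLs.S day 5 replicate 1), Sall4 lower (-1.05, and -0.94 without DIOLs.S day 3 replicate 1) and L1td1 lower (-1.82). On day 14 against day 7 Sall4 changed by 0.80, below the fold threshold, and by 1.27 after rescaling.

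In counts, 0 members were higher and 6 lower on day 3 against day 1 (20.9% of 11603 genes called; median log2 change -1.81 for the members and 0.14 for all genes). The counts were 1 higher and 2 lower on day 5 against day 3 (7.95% of genes called), 1 and 1 on day 7 against day 5 (8.06%), and 3 and 2 on day 14 against day 7 (40.5%). Over the whole course, day 14 against day 1, 0 were higher and 7 lower (53.3% of genes called; median -2.31, against -0.45 for all genes), and the 3 not called were Pou5f1, Lin28a and Sall4. Among the 20 other network genes 3 were higher and 15 lower over the course, where 16.8% of all genes were called higher and 36.5% lower. Fbxo15 averaged 0.285 TPM on day 14, against 159 TPM on day 1. The Nodal inhibitor Lefty1 was listed at 0 on day 14, against 89.7 TPM on day 1, and had averaged 1.23 TPM by day 3. Nodal itself averaged 1.05 TPM on day 3, against 27.3 TPM on day 1. Growing-oocyte genes summed to 93498 to 97507 TPM on day 14, against 1489 to 1742 TPM on day 1. Among the DIOLs.S days summed granulosa markers were lowest on day 14, at 55.2 to 93.1 TPM, and reached 648 to 2585 TPM on day 7. Their part in these changes was not tested.

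**Figure D4:**
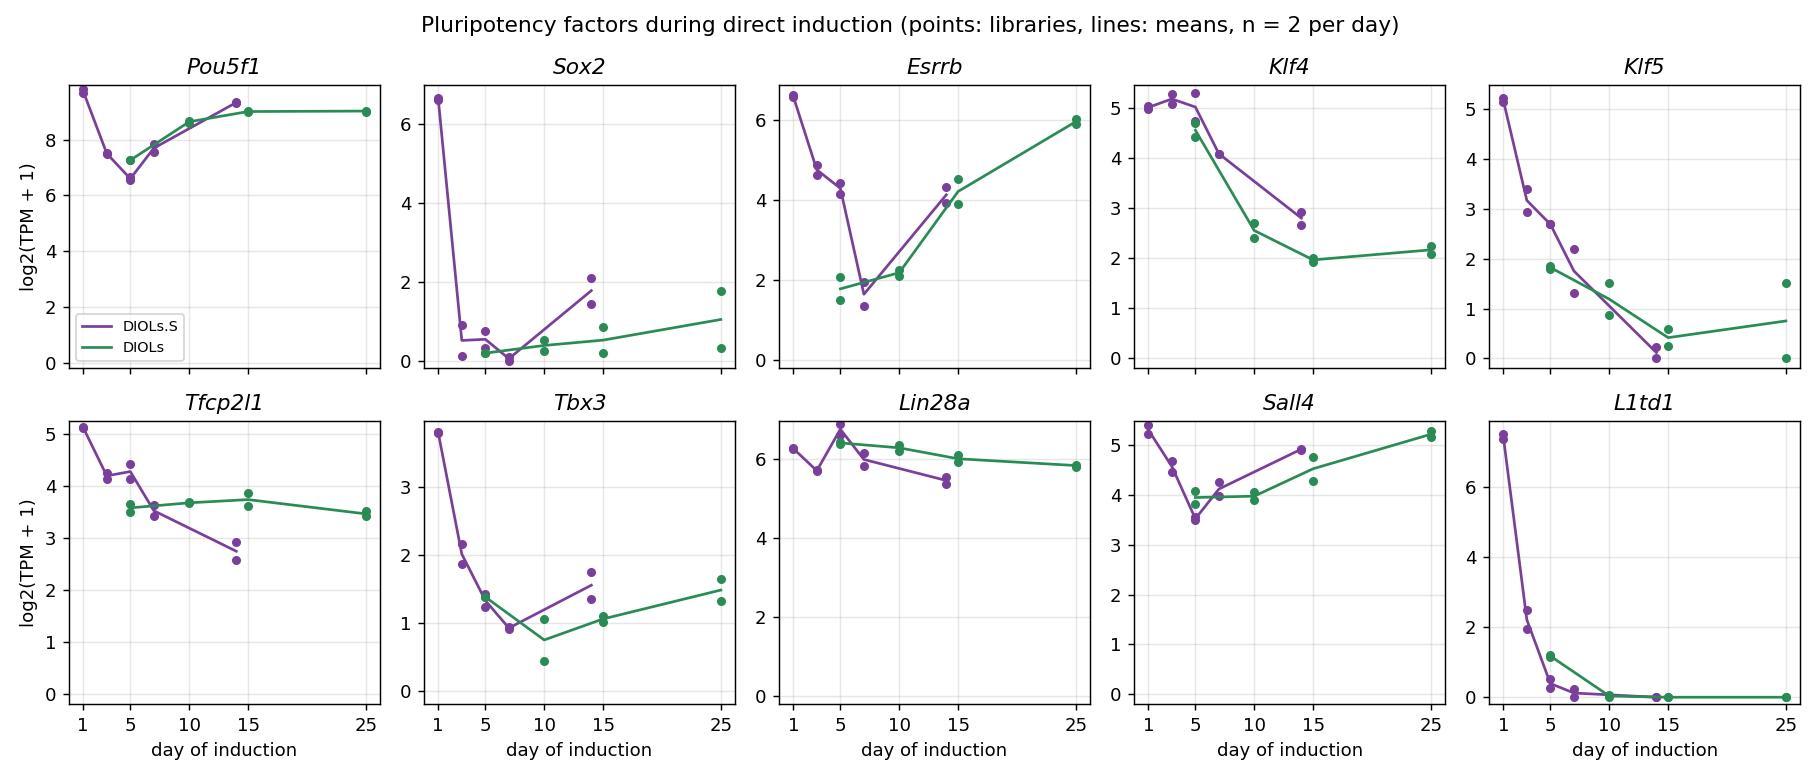
Level of each member on log2(TPM + 1) against the day of induction in DIOLs.S (days 1 to 14) and DIOLs (days 5 to 25), with points for libraries and lines through the means (n = 2 per day). Pou5f1 dips to 99.3 and 92.8 TPM on day 5 of DIOLs.S and climbs again, whereas Sox2 and L1td1 drop after day 1 and stay near 0.

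In the DIOLs series Pou5f1 read 152 and 153 TPM on day 5, 386 and 409.6 on day 10, 509.8 and 516 on day 15 and 512 and 526 on day 25. It was thus higher by day 10 (log2 change 1.38 ± 0.08, adjusted p = 7.6e-11) and changed little later (log2 changes 0.37 to day 15 and 0.02 to day 25). Esrrb came later, with 3.21 and 1.82 TPM on day 5, 3.33 and 3.8 on day 10, 21.9 and 14.1 on day 15 and 58.2 and 64 on day 25. Both its later steps passed (log2 change 2.02, adjusted p = 6.5e-06 to day 15, and 1.74, adjusted p = 7.5e-06 to day 25). Sall4 read 13.1 and 15.8 TPM on day 5 and 37.9 and 34.6 on day 25. Klf4 went the other way, with 24.8 and 20.3 TPM on day 5, 4.31 and 5.46 on day 10 and 3.73 and 3.25 on day 25, the fall coming by day 10 (log2 change -2.00, adjusted p = 2.5e-07). Sox2 was under 1 TPM on days 5, 10 and 15 and read 2.42 and 0.24 TPM on day 25.

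Day 25 against day 5 had 3 members higher (Esrrb 4.17, Pou5f1 1.76 and Sall4 1.27) and 3 lower (Klf4 -2.39, L1td1, listed at 0 on day 25, and Klf5 -1.07), where 44.3% of genes were called. Klf5 and L1td1 were low throughout, and both calls were lost after rescaling (Klf5 at -0.77, adjusted p = 0.064, and L1td1 by its size alone). The Klf5 call was also lost without DIOLs day 25 replicate 2 (log2 change -0.32, adjusted p = 0.41) and without DIOLs day 5 replicate 2 (adjusted p = 0.052). By step, 1 member was higher and 2 lower to day 10 (23.1% of genes called), and only Esrrb was called to day 15 (3.64%) and to day 25 (7.57%). The 2 lower to day 10 were Klf4 and L1td1, L1td1 at -1.14 and -0.90 after rescaling. Of the 20 other network genes 4 were higher and 5 lower on day 25 against day 5, where 10.9% of all genes were called higher and 33.4% lower. Gbx2 averaged 80.0 TPM on day 25, against 2.48 TPM on day 5, and Dppa4 9.27 TPM, against 82.2 TPM.

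Both induction series held a day 5. Esrrb alone of the 10 was called between them, at 16.9 and 20.5 TPM in DIOLs.S and 3.21 and 1.82 TPM in DIOLs (log2 change 2.51, adjusted p = 4.1e-08; 11.9% of genes called). Pou5f1 read 99.3 and 92.8 TPM in DIOLs.S and 152 and 153 TPM in DIOLs (log2 change -0.66, adjusted p = 2.8e-06), without overlap and below the fold threshold.

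GV oocytes from the animal expressed Pou5f1 at similar levels in both groups. It read 436, 389 and 398 TPM in competent and 427, 454 and 424 TPM in incompetent oocytes (log2 change -0.09, adjusted p = 0.3), and the groups overlapped. Esrrb was the 1 member called. It read 61.7, 53.8 and 61.5 TPM in competent and 152, 150.0 and 149 TPM in incompetent oocytes, without overlap (log2 change -1.34 ± 0.18, adjusted p = 3.4e-06), in a comparison where 9.96% of genes were called. The groups also differ in the 3w and 2w of their column names, which cannot be told apart from comp and incomp. Incompetent GV oocytes held the highest Esrrb of the 68 libraries. Smaller differences with an adjusted p under 0.05 were higher in competent oocytes for Sall4 (0.66), Lin28a (0.58), Tbx3 (0.54) and Klf4 (0.47) and lower for Tfcp2l1 (-0.78). Sox2 was present in both, at 5.37, 5.73 and 5.2 TPM in competent and 5.93, 4.56 and 5.59 TPM in incompetent oocytes. Klf5 was at or below 0.14 TPM in all 6 libraries.

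DIOLs of day 25 were set against incompetent GV oocytes, with 1 member higher and 5 lower and 26.3% of genes called. Pou5f1 read 512 and 526 TPM in DIOLs and 427, 454 and 424 TPM in GV oocytes, without overlap and below the fold threshold (log2 change 0.25, adjusted p = 0.0056). Lower in DIOLs were L1td1 (listed at 0 in DIOLs), Sox2 (-1.62), Esrrb (-1.29), Sall4 (-1.28) and Klf4 (-1.07), and higher was Tfcp2l1 (10.4 and 9.63 TPM, against 2.91, 2.85 and 2.01 TPM in GV oocytes; 1.63). Without DIOLs day 25 replicate 2 the changes of Sox2 (-0.89) and Klf4 (-0.99) were under the threshold. DIOLs.S of day 14 had 0 members higher and 3 lower than incompetent GV oocytes (31.1% of genes called): Esrrb (-3.11), L1td1 (listed at 0 in DIOLs.S) and Sall4 (-1.58). Without DIOLs.S day 14 replicate 1 the calls were 5 in all, Sox2 (-1.22) and Tfcp2l1 (1.08) being added.

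MII DIOL held much more Sall4, Lin28a and Tbx3 than any other group. Sall4 read 528 and 521 TPM in MII DIOL, 37.9 and 34.6 TPM in DIOLs of day 25 and 132, 147 and 147 TPM in competent GV oocytes. Lin28a read 462 and 466 TPM in MII DIOL, 56.8 and 54.8 TPM in DIOLs of day 25 and 74.6, 83.4 and 82.3 TPM in competent GV oocytes. Tbx3 read 25.7 and 23.8 TPM in MII DIOL, 2.13 and 1.49 TPM in DIOLs of day 25 and 2.84, 3.94 and 3.62 TPM in competent GV oocytes. Both MII libraries lay above all libraries of the other groups for each of the 3 genes. Against DIOLs of day 25 the log2 changes were 3.82 for Sall4 (adjusted p = 1.7e-14), 3.20 for Tbx3 (adjusted p = 4.2e-11) and 3.03 for Lin28a (adjusted p = 5.4e-15). Against competent GV oocytes they were 1.88, 2.53 and 2.52. These 2 comparisons share the MII libraries.

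Pou5f1 did not follow them. It read 269 and 291 TPM in MII DIOL, 512 and 526 TPM in DIOLs of day 25 and 436, 389 and 398 TPM in competent GV oocytes. On the deposited scale its log2 change in MII DIOL was -0.89 against DIOLs (adjusted p = 2.6e-09) and -0.54 against GV oocytes (adjusted p = 1.2e-06), neither a call. Relative to the scale difference of these libraries both directions turned, to 0.09 (adjusted p = 0.41) and 0.34 (adjusted p = 0.001). The change of Pou5f1 between these stages therefore has no settled direction, whereas Sall4, Lin28a and Tbx3 were higher on both scales.

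Sox2 read 11.8 and 8.6 TPM in MII DIOL, against 2.42 and 0.24 TPM in DIOLs of day 25 (log2 change 2.43, adjusted p = 4.1e-06), and Klf4 29.1 and 15.9 TPM, against 3.73 and 3.25 TPM (2.33, adjusted p = 3.2e-09). Tfcp2l1 was lower, at 2.46 and 2.62 TPM, against 10.4 and 9.63 TPM (-1.64, and -0.87 after rescaling). In all, 5 members were higher and 1 lower than in DIOLs of day 25 (57.6% of genes called; median 1.58, against -0.39 for all genes), and 4 were higher and 0 lower than in competent GV oocytes (50.2%; median 0.79, against -0.13), Klf5 being the fourth (1.48, adjusted p = 0.00042). After rescaling 7 were higher and 0 lower than in DIOLs of day 25, Klf5 (1.54, adjusted p = 0.00063) and L1td1 (adjusted p = 0.00041) being added and Tfcp2l1 lost. After rescaling 7 were called against GV oocytes, Klf4 (1.66), Sox2 (1.62) and Tfcp2l1 (1.48) being added. Rescaling moves all genes of these comparisons upward, and the share of all genes called on that scale was not counted. The larger counts are therefore no result about the members. Among other network genes Tcl1 averaged 7001 TPM in MII DIOL, against 808 TPM in DIOLs and 1717 TPM in competent GV oocytes. Lin28b, the paralogue of Lin28a, averaged 27.1 TPM in MII DIOL, against 3.88 TPM in DIOLs. Of the oocyte genes Gdf9, a growth factor, read 9269 and 9128 TPM and Padi6, of the subcortical maternal complex, 13.8 and 10.7 TPM in MII DIOL, against 9276, 8622 and 8853 TPM and 5737, 5496 and 5750 TPM in competent GV oocytes. Summed granulosa markers read 483 to 924 TPM in MII DIOL (Rspo1 and Krt19 at 0), against 35.2 to 40.2 TPM in DIOLs of day 25 and 92.1 to 182 TPM in competent GV oocytes. Their part in the members' levels was not tested.

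**Figure D5:**
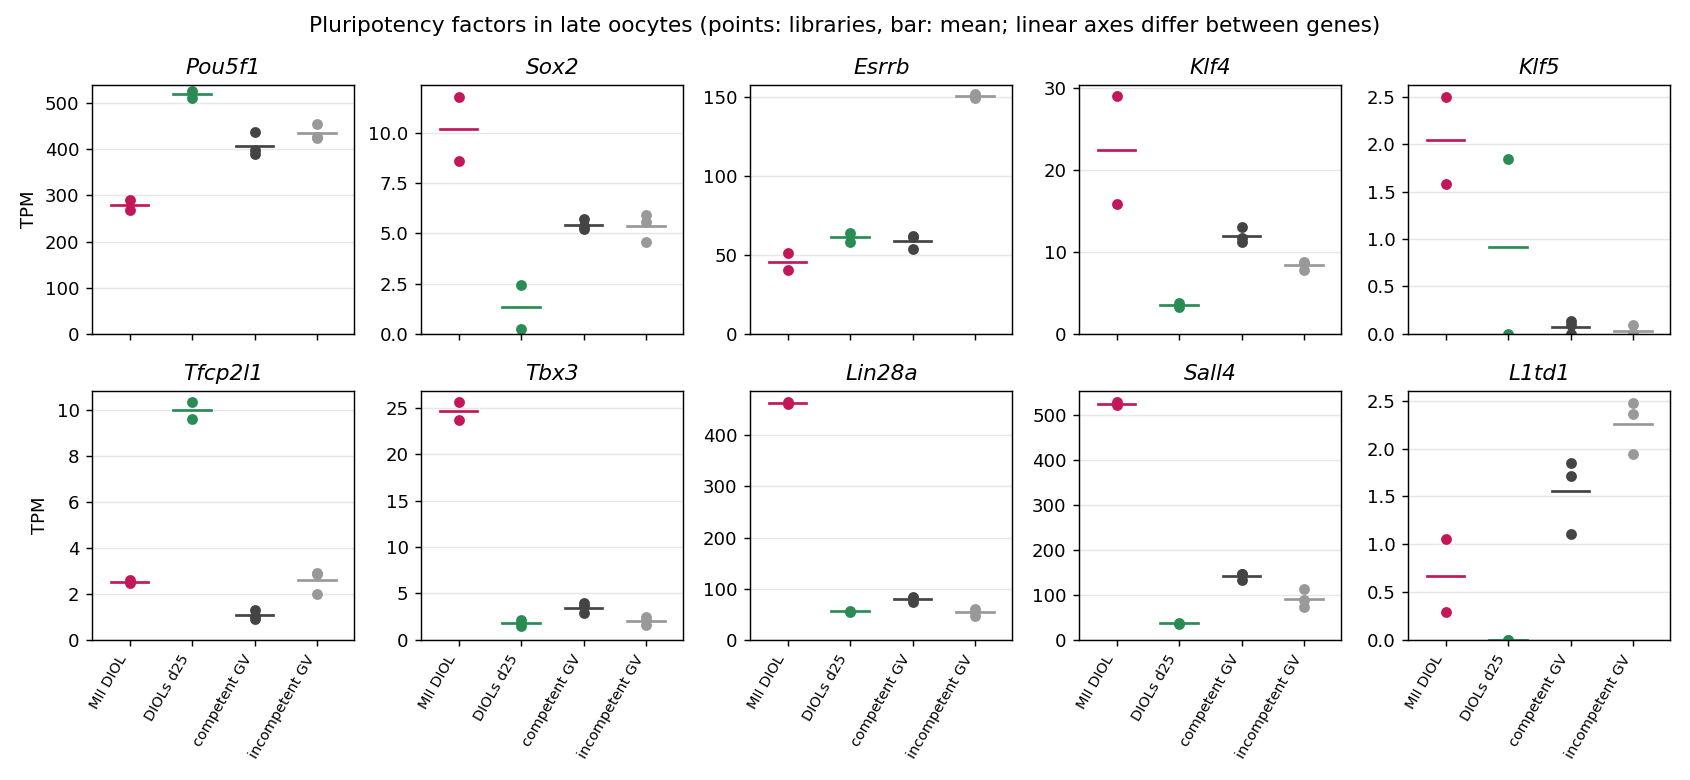
TPM of each member in MII DIOL, DIOLs of day 25, competent GV and incompetent GV oocytes, with points for libraries and bars at means, and with linear axes that differ between genes. Sall4, Lin28a and Tbx3 are highest in MII DIOL, Esrrb in incompetent GV oocytes at 152, 150.0 and 149 TPM, and Tfcp2l1 in DIOLs of day 25 at 10.4 and 9.63 TPM.

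Wild-type day 13 oocytes were also set against incompetent GV oocytes, in 1 fit over all 68 libraries, with 1 member higher and 5 lower and 33.5% of 12689 genes called. Esrrb (-3.19), Sox2 (-2.58), Klf4 (-1.80), Sall4 (-1.79) and L1td1 (listed at 0 on day 13) were lower in the in vitro oocytes and Tfcp2l1 higher (1.80). Pou5f1 read 700.0 and 703 TPM in wild-type day 13 and 427, 454 and 424 TPM in incompetent GV oocytes (log2 change 0.69, below the fold threshold). DIOLs.S of day 14 and wild-type day 13 oocytes came close in Pou5f1 without overlap, at 649 and 636 TPM in DIOLs.S and 700.0 and 703 TPM in wild type (-0.13, adjusted p = 0.31). After rescaling the change was 0.31 (adjusted p = 0.0044), so its direction is not settled. Sox2 (1.69) and Klf4 (1.37) were the 2 members higher in DIOLs.S, 0 being lower and 19.4% of genes called. The Klf4 call was lost without wild-type replicate 1 (adjusted p = 0.091) or DIOLs.S day 14 replicate 1 (adjusted p = 0.099).

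Across the 33 group means of log2(TPM + 1) the other members were unlike Pou5f1. Pearson's r with Pou5f1 was 0.58 for Sall4, 0.46 for Lin28a, 0.30 for Esrrb and 0.24 for Tbx3, and -0.61 for Klf4, -0.53 for Klf5, -0.44 for Sox2, -0.18 for Tfcp2l1 and -0.01 for L1td1. Groups share source lines, and every level depends on the composition of its library, so these values describe the table and carry no test. Among 9233 genes that reached a mean of 10 TPM in some group, those most like Pou5f1 included Cpsf4l (0.82), Mybl2 (0.81), Pcbd1 (0.80) and Npm2 (0.79), the last a histone chaperone of oocytes. Those most like Sox2 were Slc16a11 (0.86), Zic2 (0.86), Pipox (0.86), Arhgap19 (0.85) and Pus7 (0.84). Ccnb1, cyclin B1, was among the genes nearest to both Sall4 (0.86) and Tbx3 (0.81), and Etv4 and Nodal were nearest to L1td1 (0.92 and 0.91).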

How the data were processed

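RNA sequencing measured polyadenylated RNA in 68 mouse libraries of 33 groups. The authors deposited 1 table of TPM, a length-corrected abundance. Per the submitters' processing notes STAR 2.6.0, featureCounts 1.6.0 and the mm10 build were used, and how TPM were computed from counts is not given in the sources used here. Of 15163 rows, 1 incomplete row and 22 with date-like names were dropped, leaving 15140 genes. Of 148 columns 68 were matched to samples by name, GV columns by stage and replicate number, and 80 were not used. 3 samples and their group were not analysed here. TPM keep no depth, so no counting interval is given.

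From there log2(TPM + 1) was fitted with limma 3.58.1 in R 4.3.3 (trend and robust), for genes at 1 TPM or more in at least 2 libraries. Fits covered the 42 in vitro libraries (12306 genes), the 26 DIOL and GV libraries (11603) and, for 2 comparisons across them, all 68 (12689). P-values were adjusted by Benjamini-Hochberg over all genes of a fit, and a call needed an adjusted p under 0.05 and a log2 change of at least 1. The script was tested on simulated data. Alternatives were a pseudocount of 0.1, no filter, no robust option, the replicate number as a block, rescaling by the median of ratios over genes, 1 fit over all libraries, each library left out in turn and the Sohlh1 knockout libraries left out. The members and gene lists were chosen with earlier results of these data known. All 10 members are named, and of each other list up to 4 called genes of largest change with a mean of at least 10 TPM in the higher group. Likeness is Pearson's r over 33 group means, with up to 5 genes named for a member; 1 gene near Pou5f1 is not reported here.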

Additional observations from a re-analysis of the deposited data

Results flagged for a closer look

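Members that differed between 2 knockouts of the same day are given again here, since the difference itself was tested with limma. The Nobox and Tbpl2 knockouts differed in Pou5f1 (log2 change -5.90, Nobox over Tbpl2), Sall4 (-2.26) and Esrrb (1.95). The Lhx8 and Stat3 knockouts differed in Pou5f1 (-1.55, Lhx8 over Stat3), Sox2 (-1.59), Sall4 (-1.37) and L1td1 (-1.18). Of these 4, Sox2, Sall4 and L1td1 were lost without Lhx8 knockout replicate 1 (adjusted p = 0.085, 0.0818 and 0.156) and with a pseudocount of 0.1, and Pou5f1 was not. In every one of these pairs the 2 libraries of one knockout lay on one side of the 2 libraries of the other. These members were listed because they were called, which favours such a separation, so it is no separate evidence. Growing-oocyte markers were called in the first pair too, with 1 higher and 11 lower of 15 in the Nobox knockout. The 15 include Tbpl2, the gene targeted in the other knockout. Of all genes 6.63% were called lower there. Blood markers were called in the second pair, with 5 higher and 0 lower of 13 in the Lhx8 knockout. Of all genes 2.24% were called higher there. The part of these markers in these differences was not tested.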

How the results depend on the processing

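Of 390 tests of members 131 were calls, and 98 of these kept their side under every alternative. For this count only libraries of the comparison itself were left out. Without the filter, without the robust option, with 1 fit over all libraries where it applied, and without the Sohlh1 knockout libraries, none of the calls was lost. With 1 fit 4 tests became calls, and without the Sohlh1 knockout libraries 6, all of Klf4 or Klf5. Same-numbered libraries had deviations from their group means that correlated at -0.135 to 0.085 over 39 comparisons. Such values, over all genes and from so few libraries, cannot settle whether same-numbered libraries were made together. The labels do not say. With the replicate block Pou5f1 was again lower in 8 knockouts and the other 9 members had 36 higher and 13 lower calls over the knockouts, with no call changed. With a pseudocount of 0.1, members called numbered 2 rather than 1 between DIOLs.S and DIOLs of day 5, 2 rather than 1 between competent and incompetent GV oocytes, and 1 rather than 4 between the Lhx8 and Stat3 knockouts. After rescaling, 7 rather than 4 were called between MII DIOL and competent GV oocytes, without a count of all genes called on that scale. Pou5f1 in MII DIOL went from -0.89 to 0.087 against DIOLs of day 25 and from -0.54 to 0.34 against competent GV oocytes. The cause of these changes was not tested. Leaving out each library in turn, Pou5f1 was lower in 7 to 8 knockouts, and the other members had 31 to 41 higher and 11 to 15 lower calls. Members called ranged from 1 to 3 for DIOLs day 25 v day 15 and DIOLs.S day 14 v wild type day 13, 3 to 5 for DIOLs.S day 14 v incompetent GV and 1 to 5 for the Lhx8 v Stat3 knockouts. Among knockouts against wild type, leaving out a library of the comparison gave 0 to 1 members rather than 2 in the Ccnk-labelled, 1 to 2 rather than 3 in the Ybx3, 5 to 7 rather than 7 in the Stat3 and 4 to 6 rather than 4 in the Sub1-labelled comparison, and moved the count by at most 1 in the others. Of the 131 calls 23 were lost on leaving out at least 1 library of their comparison, 10 with a pseudocount of 0.1 and 9 after rescaling, and 25, 18 and 15 tests became calls. TPM without depth leave the counting error of low members such as L1td1 and Tbx3 unknown.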

Other observations

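Formative and primed epiblast genes, which mark the state after naive pluripotency, were described with the members. Of 16 tested, 13 were higher and 0 lower in the Dynll1 knockout, where 37.7% of all genes were called higher, with a median log2 change of 1.86, against 0.69 for all genes. Sox4 averaged 93.6 TPM there and 2.95 TPM in wild-type day 13 oocytes, Lef1, a Wnt effector, 24.4 TPM against 0.98 TPM, and Etv4, an Ets factor, 21.0 TPM against 0.83 TPM. Over DIOLs.S, day 14 against day 1, 2 of 13 were higher and 9 lower, where 16.8% of all genes were called higher and 36.5% lower. Etv4 and Otx2 were listed at 0 on day 14, against means of 63.9 TPM and 18.8 TPM on day 1.

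Dmrt1 and Dnd1, picked from the early germ cell genes counted above, were high in knockouts whose Pou5f1 levels differed widely. Not all genes of that list were higher. Of all genes 37.7% were called higher in the Dynll1, 30.0% in the Nobox and 15.8% in the Stat3 knockout. Dmrt1, a DM-domain factor of germ cells, averaged 478 TPM in the Dynll1 and 138 TPM in the Nobox knockout, against 8.94 TPM in wild-type day 13 oocytes, and 382 TPM in the Stat3 knockout, against 4.13 TPM in wild-type day 11 oocytes. Dnd1, an RNA-binding protein of germ cells, averaged 224 TPM in the Dynll1 and 209 TPM in the Nobox knockout, against 3.21 TPM in wild type. Pou5f1 averaged 346 TPM in the Dynll1 and 4.76 TPM in the Nobox knockout, and 91.2 TPM in the Stat3 knockout. In GV oocytes Ddx4, an RNA helicase of germ cells, averaged 58.9 TPM in competent and 237 TPM in incompetent oocytes (log2 change -1.99), a difference in the same direction as that of Esrrb.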
